A study of Mus musculus with 64 samples.

Results

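β-catenin is the co-activator through which canonical WNT signals reach the genome. It has no DNA-binding domain of its own and is held at cis-regulatory elements (CREs) by partner proteins, classically the TCF/LEF factors LEF1, TCF7L1 and TCF7L2, which read a short TCF sequence. SOX2 is a high-mobility-group transcription factor of pluripotent and neural cells that reads the related SOX sequence, often beside the octamer read by OCT4. The regions described here are the CREs at which the strongest β-catenin peaks were found where SOX2 was high and not where SOX2 was low. They number 410 of 12601 merged β-catenin sites, or 3.25% of the sites tested.

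The data were chromatin immunoprecipitation peak lists for β-catenin, SOX2, LEF1, TCF7L1 and TCF7L2 in 4 conditions, with 3 biological replicates each. A pair of cell lines was used, each at a high and a low SOX2 level. The WT line was an XY mouse embryonic stem cell line on the 129 background (HM1) that carried the TetON components, sampled as naive ESCs in 2i medium (the GSK3 inhibitor CHIR99021 with the MEK inhibitor PD0325901) for high SOX2 and as CEpiLC, caudal epiblast-like cells made with bFGF and LGK974, an inhibitor of WNT secretion, followed by CHIR99021, for low SOX2. The SOX2-TetON line was 1 clone in which both endogenous Sox2 alleles were ablated and SOX2 came from a doxycycline-driven transgene at the HPRT locus, with rtTA expressed from Rosa26. It was differentiated under the CEpiLC regime either with doxycycline at 1 µg/ml (SOX2-ON, high SOX2) or after its withdrawal (SOX2-OFF, low SOX2), where SOX2 protein runs down gradually. All conditions received a GSK3 inhibitor and are labelled 72 h. In the WT line SOX2 level and cell state changed together, and their parts cannot be told apart there. In the SOX2-TetON line doxycycline changed with SOX2 level. The paper describes SOX2-ON cells as appearing to return to a naive-like state and SOX2-OFF cells as taking an earlier, more anterior streak identity. Level, state and drug thus cannot be told apart in that line either.

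The 12 β-catenin lists held from 3423 to 461476 peaks, so each was cut to the 3423 peaks of highest fold enrichment (the deposited ratio of ChIP signal to local background at the summit). Peaks sharing at least 1 bp were merged across lists. A merged site counted as a high-SOX2 site if it held a peak in 5 or 6 of the high-SOX2 lists (3 each from SOX2-ON cells and naive ESCs) and in 0 or 1 of the 6 low-SOX2 lists (3 each from SOX2-OFF cells and CEpiLC). The sites were thus selected on β-catenin fold and list membership, and β-catenin values are given as a description without a test. The SOX2, LEF1, TCF7L1 and TCF7L2 libraries, the place of the sites and their sequence had no part in it. For comparison, 528 sites had a β-catenin peak in at least 5 of 6 lists at both SOX2 levels (kept sites), and 675 sites met the rule in reverse (low-SOX2 sites). Read depth is not given by peak lists, and the longest lists hold many weak peaks, so partner lists were also cut to equal length per protein.

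Sequences from 100 bp each side of the β-catenin summit show what these CREs are made of, first for the 3 sites of highest fold that met the rule in every list, then for 5 sites nearest to pluripotency genes. They were read from the mm10 (GRCm38) reference, plus strand, which is of C57BL/6J and not of the 129 background of the cells. The windows are chr9:97477083-97477283 (nearest start site Trim42), chr1:55198725-55198925 (Rftn2), chr4:57770239-57770439 (Akap2), chr1:136613246-136613446 (Zfp281), chr4:55464337-55464537 (Klf4), chr13:112462532-112462732 (Il6st), chr14:99510243-99510443 (Klf5) and chr12:86470985-86471185 (Esrrb). Capitals mark matches on either strand to the SOX sequence (CATTGT or CTTTGT), the TCF sequence (CTTTGAA or CTTTGAT), the octamer (ATGCAAAT), the composite SOX-OCT sequence (TTGTNATGC), the ESRRB sequence (TCAAGGTCA) and the KLF sequence (GGGTGTGG). The SOX sequence CTTTGT and both TCF sequences share the letters CTTTG and differ in the next base, so 1 match cannot count as both. By this choice of letters, CTTTG followed by T was counted as SOX alone, and the shares of both sequences depend on it.
Trim42 site: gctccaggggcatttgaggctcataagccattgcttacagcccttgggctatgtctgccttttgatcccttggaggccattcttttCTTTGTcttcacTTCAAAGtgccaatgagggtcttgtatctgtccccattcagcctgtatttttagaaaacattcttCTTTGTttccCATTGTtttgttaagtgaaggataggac
Rftn2 site: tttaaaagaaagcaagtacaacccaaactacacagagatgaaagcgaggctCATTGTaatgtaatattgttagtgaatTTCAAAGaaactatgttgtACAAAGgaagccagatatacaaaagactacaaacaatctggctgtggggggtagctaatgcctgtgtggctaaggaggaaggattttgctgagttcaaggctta
Akap2 site: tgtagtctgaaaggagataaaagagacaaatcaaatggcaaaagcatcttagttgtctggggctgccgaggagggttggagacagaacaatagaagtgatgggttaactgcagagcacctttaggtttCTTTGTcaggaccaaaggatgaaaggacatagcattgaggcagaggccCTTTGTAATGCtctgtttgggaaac
Zfp281 site: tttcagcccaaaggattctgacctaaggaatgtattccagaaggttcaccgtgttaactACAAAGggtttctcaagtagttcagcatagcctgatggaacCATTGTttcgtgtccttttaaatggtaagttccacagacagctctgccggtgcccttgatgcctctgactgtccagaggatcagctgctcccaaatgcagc
Klf4 site: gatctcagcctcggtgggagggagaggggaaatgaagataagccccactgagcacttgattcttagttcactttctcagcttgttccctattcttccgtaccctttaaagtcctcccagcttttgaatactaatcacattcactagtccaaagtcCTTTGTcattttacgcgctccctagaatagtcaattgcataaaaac
Il6st site: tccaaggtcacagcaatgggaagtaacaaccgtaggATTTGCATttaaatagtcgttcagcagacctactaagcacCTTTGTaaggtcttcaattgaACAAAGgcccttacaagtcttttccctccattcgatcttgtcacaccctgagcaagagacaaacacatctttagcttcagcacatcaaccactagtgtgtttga
Klf5 site: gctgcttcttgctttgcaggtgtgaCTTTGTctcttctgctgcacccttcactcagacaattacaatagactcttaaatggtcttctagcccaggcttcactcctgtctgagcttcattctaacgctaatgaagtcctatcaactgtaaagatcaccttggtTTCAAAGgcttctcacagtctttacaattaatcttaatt
Esrrb site: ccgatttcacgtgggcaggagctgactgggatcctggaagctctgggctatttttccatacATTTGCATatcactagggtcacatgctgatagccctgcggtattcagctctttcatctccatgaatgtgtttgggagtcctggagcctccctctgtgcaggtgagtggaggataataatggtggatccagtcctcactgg

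Of these 8 windows, 7 held a SOX sequence, and the Esrrb window held an octamer alone. The Trim42, Rftn2 and Klf5 windows held a TCF sequence as well, and the Akap2 window held the composite SOX-OCT sequence, which overlapped 1 of its SOX matches. The Il6st window held an octamer beside 2 SOX sequences. A match is a description of the letters, not evidence that the site is bound through them.

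SOX sequences were found in most high-SOX2 sites, while TCF sequences were less frequent there than at sites that kept β-catenin. A SOX sequence lay within 100 bp of the summit at 296 of 410 high-SOX2 sites (72.2%, exact 95% binomial interval 67.6 to 76.5%). The share was 41.7% (37.4 to 46.0%) at kept sites, 25.0% (21.8 to 28.5%) at low-SOX2 sites, 44.5% over all 12601 sites and 29.9% (26.8 to 33.1%) in 820 windows of the same length placed 5000 bp to either side of the high-SOX2 sites. A TCF sequence lay at 153 high-SOX2 sites (37.3%, 32.6 to 42.2%), against 69.3% (65.2 to 73.2%) of kept sites, 63.0% (59.2 to 66.6%) of low-SOX2 sites, 43.8% of all sites and 10.4% (8.36 to 12.7%) of the flanking windows. High-SOX2 sites thus had the highest share of the 3 classes for SOX and the lowest for TCF, while kept sites were above low-SOX2 sites for both. The intervals cover counting error only, and sites are not replicates.

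Both sequences occurred together at 103 high-SOX2 sites (25.1%), against 25.9% of kept sites and 16.9% of all sites. More than 1 SOX match was present at 132 high-SOX2 sites (32.2%), and the mean number per window was 1.17, against 0.551 at kept sites. The composite SOX-OCT sequence was found at 24 high-SOX2 sites (5.85%, 3.79 to 8.58%), compared with 2.27% of kept sites and 2.38% of all sites. The octamer was at 7.32% of high-SOX2 sites (4.99 to 10.3%), 7.39% of kept sites, 4.49% of all sites and 0.732% of the flanking windows. The CDX sequence (TTTATGG or TTTATTG), read by caudal homeobox factors, was at 7.56% of high-SOX2 sites, 6.59% of all sites and 6.10% of flanking windows. The T-box sequence (AGGTGTGA), read by the mesoderm factor brachyury, was found at 1 high-SOX2 site (0.244%), against 18 of 675 low-SOX2 sites (2.67%) and 1.67% of all sites. The ESRRB sequence was at 4 high-SOX2 sites (0.976%), against 1% of all sites, and the KLF sequence at 5 (1.22%), against 2.25%. The windows of high-SOX2 sites had a median GC content of 44.5%, against 49.8% at kept sites, and the part of base composition in these shares was not tested.

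**Figure D1:**
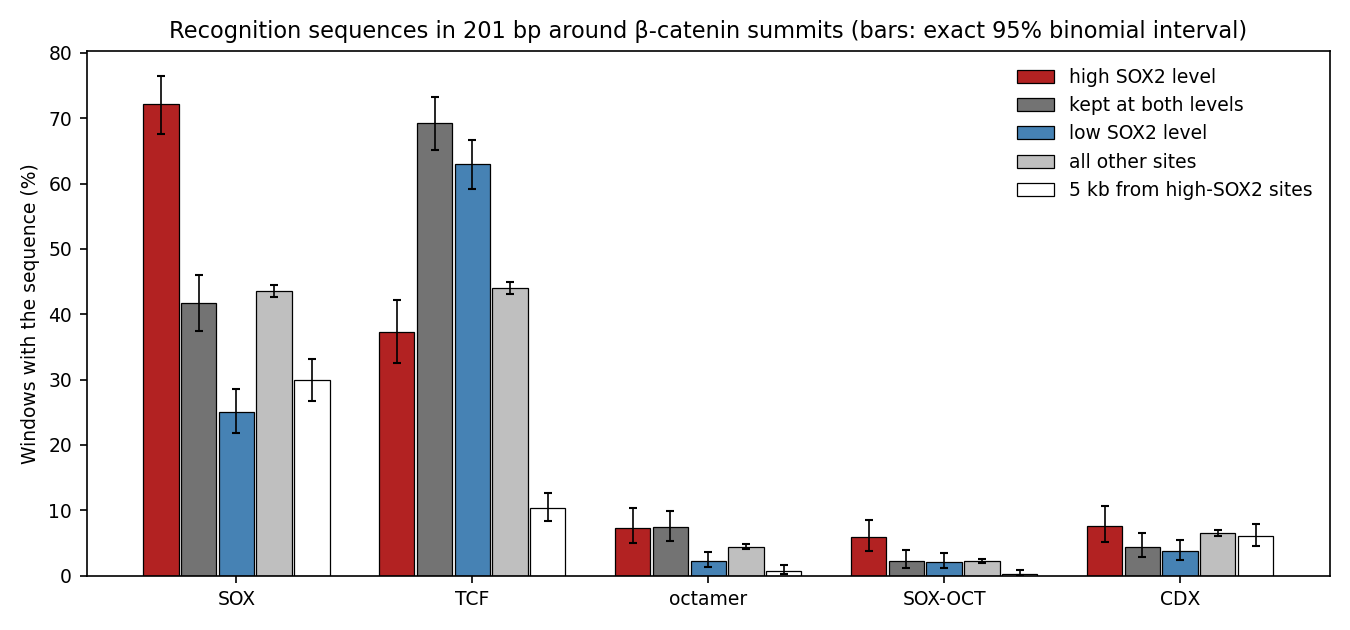
Share of windows (y axis, %) with each recognition sequence (x axis) within 100 bp of the β-catenin summit, for high-SOX2 sites (red), kept sites (dark grey), low-SOX2 sites (blue), all other sites (light grey) and windows 5000 bp from high-SOX2 sites (white). Bars show the share and whiskers the exact 95% binomial interval. The SOX sequence was at 72.2% of high-SOX2 sites and 41.7% of kept sites, and the TCF sequence at 37.3% and 69.3%.

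The SOX matches gathered at the β-catenin summit. In the 50 bp on either side of it, high-SOX2 sites held 6.98 and 7.27 SOX sequences per kb, against 2.10 and 1.51 per kb in the outermost 50-bp bins of a 1-kb window. TCF matches also gathered there, at 3.85 and 2.78 per kb, but lay below the 7.39 and 6.97 per kb of kept sites.

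**Figure D2:**
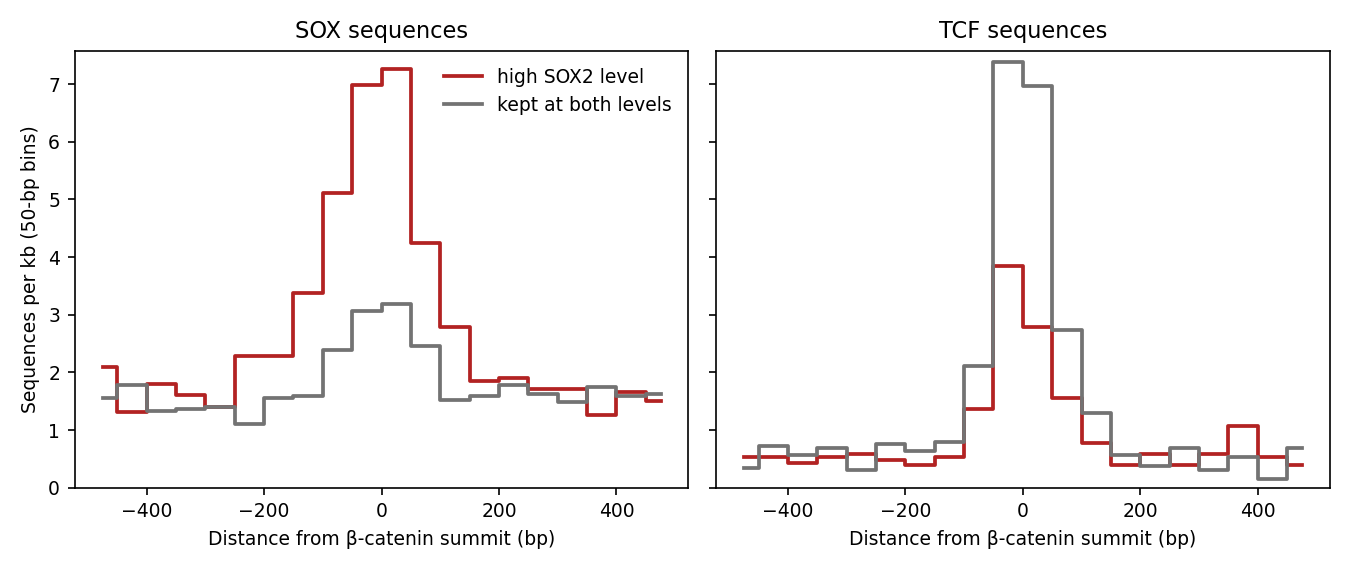
Number of SOX (left) and TCF (right) sequences per kb (y axis) in 50-bp bins by distance from the β-catenin summit (x axis, bp), for 410 high-SOX2 sites (red) and 528 kept sites (grey). SOX sequences reached 7.27 per kb beside the summit of high-SOX2 sites, and TCF sequences 7.39 per kb beside the summit of kept sites.

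The β-catenin values that chose the sites were distributed over the lists as follows. Of the 410 sites, 232 had a peak in 6 of 6 high-SOX2 lists and 178 in 5 of 6. A peak in 0 of 6 low-SOX2 lists was found for 314 sites and in 1 of 6 for 96, and 169 sites were at 6 of 6 and 0 of 6. The naive ESC lists lacked 16, 26 and 16 of the sites (replicates 1 to 3) and the SOX2-ON lists 51, 23 and 46. The CEpiLC lists held 28, 4 and 3 of them and the SOX2-OFF lists 13, 36 and 12. The fold enrichment at the sites had a median of 31.7, 17.8 and 27.8 in naive ESCs and of 20.8, 14.9 and 20.2 in SOX2-ON cells.

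**Figure D3:**
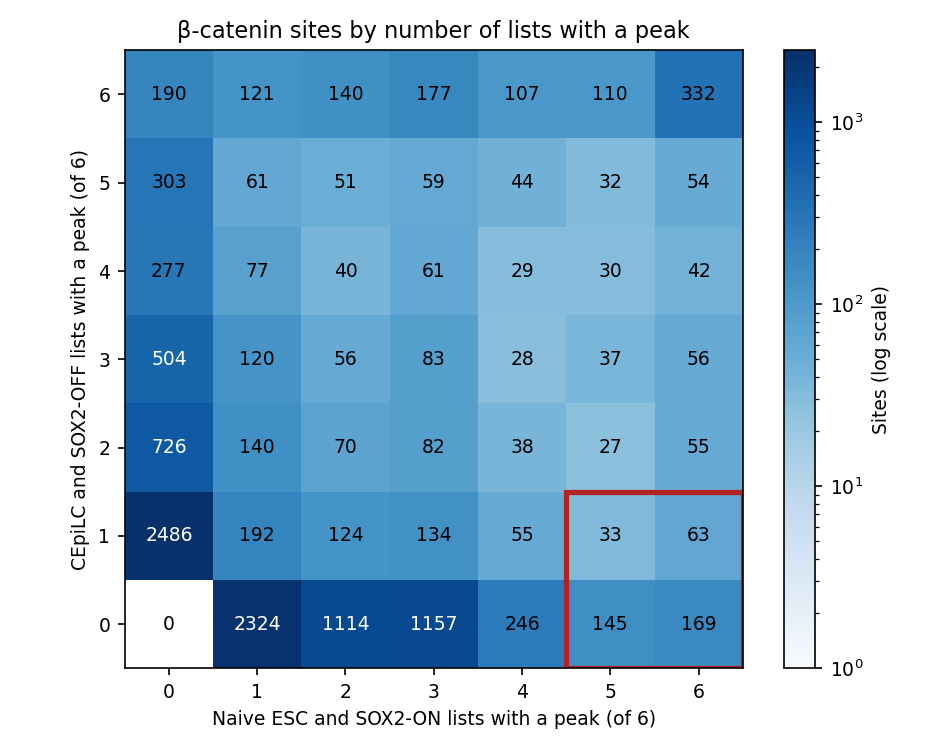
Number of merged β-catenin sites (numbers and colour, log scale) by how many of the 6 naive ESC and SOX2-ON lists (x axis) and of the 6 CEpiLC and SOX2-OFF lists (y axis) held a peak. The red frame encloses the 410 high-SOX2 sites, and the 332 sites at the upper right had a peak in every list.

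At many of these sites β-catenin peaks of lower fold were still listed at low SOX2. In the uncut lists, a β-catenin peak of any strength was present at 192, 125 and 60 of the 410 sites in CEpiLC (46.8, 30.5 and 14.6%) and at 269, 36 and 222 in SOX2-OFF cells (65.6, 8.78 and 54.1%). SOX2-OFF replicate 2 had the shortest list, of 3423 peaks, and SOX2-OFF replicate 1 the second longest, of 415244. Where a peak was listed, its median fold was 6.36, 5.87 and 5.19 in CEpiLC and 5.74, 5.99 and 6.49 in SOX2-OFF cells, while kept sites had medians of 25.2, 24.9 and 19.3 in CEpiLC and 32.7, 12.5 and 39.1 in SOX2-OFF cells. No low-SOX2 list held any β-catenin peak at 79 sites (19.3%), and 5 sites had a peak in all 6.

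At the edges of the rule, the 178 sites at 5 high-SOX2 lists were led by a site 2038 bp from the start of Cidea, with β-catenin folds of 86.4, 58.4 and 100.8 in naive ESCs and 14.8, 16.9 and 9.42 in SOX2-ON cells. Just outside, 301 sites had a peak in 4 high-SOX2 lists, led by a site 7572 bp from the start of Irf2bpl that had folds of 87.7, 83.5 and 126.5 in naive ESCs and 6.46 and 18.9 in SOX2-ON replicates 2 and 3. The 96 sites with 1 low-SOX2 list were led by a site 77426 bp from the start of Tenm3, with a median fold of 73.3 at high SOX2 and 10.5 in the 1 CEpiLC list. Just outside, 82 sites had 2 low-SOX2 lists, led by a site near Ephb1 with a median fold of 77.8 at high SOX2 and 14.0 in SOX2-OFF replicate 3. The values of sites on either side of each edge thus overlapped.

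SOX2 itself occupied nearly all of these sites at high SOX2 and fewer at low SOX2. A SOX2 peak among the 20000 of highest fold lay at 346, 399 and 396 of the 410 sites in naive ESCs (84.4, 97.3 and 96.6%) and at 375, 367 and 380 in SOX2-ON cells (91.5, 89.5 and 92.7%). It lay at 255, 205 and 203 in CEpiLC (62.2, 50 and 49.5%) and at 111, 154 and 152 in SOX2-OFF cells (27.1, 37.6 and 37.1%). No low-SOX2 library reached the lowest high-SOX2 library. The mean share was 92.8% ± 7.26 (SD, n = 3) in naive ESCs and 53.9% ± 7.19 in CEpiLC, and 91.2% ± 1.60 in SOX2-ON and 33.9% ± 5.92 in SOX2-OFF cells. The mean difference over both lines was 48.1 percentage points (exact two-sided permutation test within cell line, p = 0.005, the smallest it can give, adjusted p = 0.00667 over 4 proteins).

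The fall of SOX2 was not a general property of β-catenin sites. At the other sites the share with a SOX2 peak was 35.2% ± 5.76 in naive ESCs and 37.2% ± 4.27 in CEpiLC. In the SOX2-TetON line it was 34.9% ± 1.63 with doxycycline and 27.5% ± 8.48 without (SD, n = 3 each). The difference between SOX2 levels was 45.4 points larger at high-SOX2 sites than at the other sites (exact permutation test, p = 0.005, adjusted p = 0.005). Against the kept sites it was 62.0 points larger (exact permutation test, p = 0.005), and at kept sites the mean shares went the other way, from 73.2% ± 8.02 in naive ESCs to 87.6% ± 2.56 in CEpiLC and from 69.4% ± 5.14 in SOX2-ON to 83.0% ± 12.9 in SOX2-OFF cells.

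Part of the SOX2 occupancy was retained at low SOX2. Applying the β-catenin rule to SOX2 peaks (at least 5 of 6 high-SOX2 and at most 1 of 6 low-SOX2 lists), 117 high-SOX2 sites (28.5%) had this pattern, against 5.60% of all 12601 sites. A SOX2 peak in at least 5 of 6 lists at both levels was found at 91 sites (22.2%), against 9.06% of all sites and 55.7% of kept sites. The reverse pattern, SOX2 at low level alone, was at 0 of 410 sites, against 3.53% of all sites and 19.7% of low-SOX2 sites. In uncut lists a SOX2 peak was at 95.9 to 99.5% of the sites in the 6 high-SOX2 libraries. It was at 70.5, 73.2 and 59.0% in CEpiLC and at 36.6, 70.5 and 66.6% in SOX2-OFF cells. At the other sites the uncut shares were 45.4, 49.6 and 47.7% in CEpiLC and 29.9, 49.2 and 59.8% in SOX2-OFF cells. With equal-length lists, SOX2-OFF replicate 3 had SOX2 at 37.1% of high-SOX2 sites and 37.2% of the other sites. The SOX2 summit lay close to that of β-catenin, at a median distance of 24 to 35 bp in the high-SOX2 libraries.

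TCF7L1, the TCF factor best known as a repressor of pluripotency genes in ESCs, had strong peaks at most of these sites in 5 of 6 high-SOX2 libraries and at few of them in the low-SOX2 libraries. Among the 1628 peaks of highest fold, a TCF7L1 peak lay at 246, 259 and 262 of the 410 sites in naive ESCs (60, 63.2 and 63.9%) and at 72, 257 and 252 in SOX2-ON cells (17.6, 62.7 and 61.5%). It lay at 2, 5 and 2 sites in CEpiLC (0.488, 1.22 and 0.488%) and at 8, 20 and 8 in SOX2-OFF cells (1.95, 4.88 and 1.95%). SOX2-ON replicate 1 stood below the other 2, and all high-SOX2 libraries stood above all low-SOX2 ones. The mean difference was 53.0 points (exact permutation test, p = 0.005, adjusted p = 0.00667), and 60.4 points without SOX2-ON replicate 1. It exceeded that at the other sites by 54.3 points (exact permutation test, p = 0.005, adjusted p = 0.005). The other sites had TCF7L1 at 11.1% ± 0.104 in naive ESCs and 10.2% ± 2.82 in CEpiLC (SD, n = 3 each). In the SOX2-TetON line they had it at 8.72% ± 4.10 with doxycycline and 12.3% ± 0.856 without. Kept sites had TCF7L1 at 71.3% ± 2.28 in naive ESCs and 68.4% ± 9.56 in CEpiLC (SD, n = 3), and at 82.4% ± 4.19 in SOX2-OFF cells.

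The TCF7L1 lists met the same rule as the β-catenin lists at many of these sites. By that rule 123 sites (30%) had TCF7L1 at high SOX2 alone, against 1.48% of all sites and 1.14% of kept sites, and 0 of 410 had it at both levels, against 1.71% of all sites and 40.2% of kept sites. In the uncut lists of naive ESCs TCF7L1 was at 410 of 410 sites in all 3 libraries, the shortest of which held 23347 peaks and covered 57.1% of the other sites. In SOX2-ON cells replicates 2 and 3 covered all 410 sites, the former with 16482 peaks and 53.2% of the others, but replicate 1, with 21224 peaks, covered 186 (45.4%) and 11.3% of the others. The uncut SOX2-OFF lists covered 181, 231 and 254 of the 410 (44.1, 56.3 and 62.0%), the shortest of them with 38535 peaks. The CEpiLC lists covered 2, 184 and 74 (0.488, 44.9 and 18%), the first with 1628 peaks. Of the other sites, the SOX2-OFF lists covered 45.6, 45.4 and 55.5% and the CEpiLC lists 6.92, 46.6 and 34.3%. At high-SOX2 sites SOX2-ON replicate 1 thus lay within the range of the low-SOX2 libraries. At the other sites it lay below all of them but CEpiLC replicate 1. Peaks of TCF7L1 outside the 1628 strongest were common at low SOX2 at both kinds of site, and so were not particular to high-SOX2 sites. Summits of TCF7L1 and β-catenin were a median of 15 to 22 bp apart in naive ESCs.

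LEF1, a TCF/LEF factor mostly acting with β-catenin as an activator, varied more between replicates. Among the 4443 peaks of highest fold, LEF1 was at 6, 316 and 96 of the 410 sites in naive ESCs (1.46, 77.1 and 23.4%) and at 158, 264 and 160 in SOX2-ON cells (38.5, 64.4 and 39.0%). It was at 38, 28 and 10 sites in CEpiLC (9.27, 6.83 and 2.44%) and at 6, 7 and 9 in SOX2-OFF cells (1.46, 1.71 and 2.20%). Naive ESC replicate 1 stood apart from its group and overlapped the low-SOX2 range, and its share was low at kept sites too (3.79%, against 79.5 and 38.3% in replicates 2 and 3). The mean difference was 36.7 points (exact permutation test, p = 0.0200, adjusted p = 0.0200), and 44.8 points without that library (exact permutation test, p = 0.005). The difference exceeded that at the other sites by 43.1 points (exact permutation test, p = 0.005, adjusted p = 0.005), and the other sites of the WT line had LEF1 at 9.03% ± 10.1 in naive ESCs and 24.5% ± 0.689 in CEpiLC. The high-SOX2 pattern of LEF1 was at 25 sites (6.10%), against 0.309% of all sites, and LEF1 at both levels at 0 of 410, against 0.651% of all sites.

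TCF7L2, the factor prominent in intestinal WNT responses, occupied fewer of the sites. Among the 4134 peaks of highest fold it was at 59, 188 and 100 sites in naive ESCs (14.4, 45.9 and 24.4%) and at 46, 77 and 77 in SOX2-ON cells (11.2, 18.8 and 18.8%). It was at 6, 2 and 2 sites in CEpiLC (1.46, 0.488 and 0.488%) and at 4, 7 and 9 in SOX2-OFF cells (0.976, 1.71 and 2.20%), so the groups did not overlap. The mean difference was 21 points (exact permutation test, p = 0.005, adjusted p = 0.00667), and 23.3 points more than at the other sites (exact permutation test, p = 0.005, adjusted p = 0.005). The other sites had TCF7L2 at 7.78% ± 3.69 in naive ESCs and 10.8% ± 1.92 in CEpiLC (SD, n = 3 each). In the SOX2-TetON line they had it at 6.28% ± 1.45 with doxycycline and 7.72% ± 1.91 without. At low SOX2 the high-SOX2 sites thus lay below the other sites. The high-SOX2 pattern of TCF7L2 was at 17 sites (4.15%), against 0.381% of all sites, and its presence at both levels at 0 of 410, against 1.09% of all sites and 16.3% of kept sites.

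**Figure D4:**
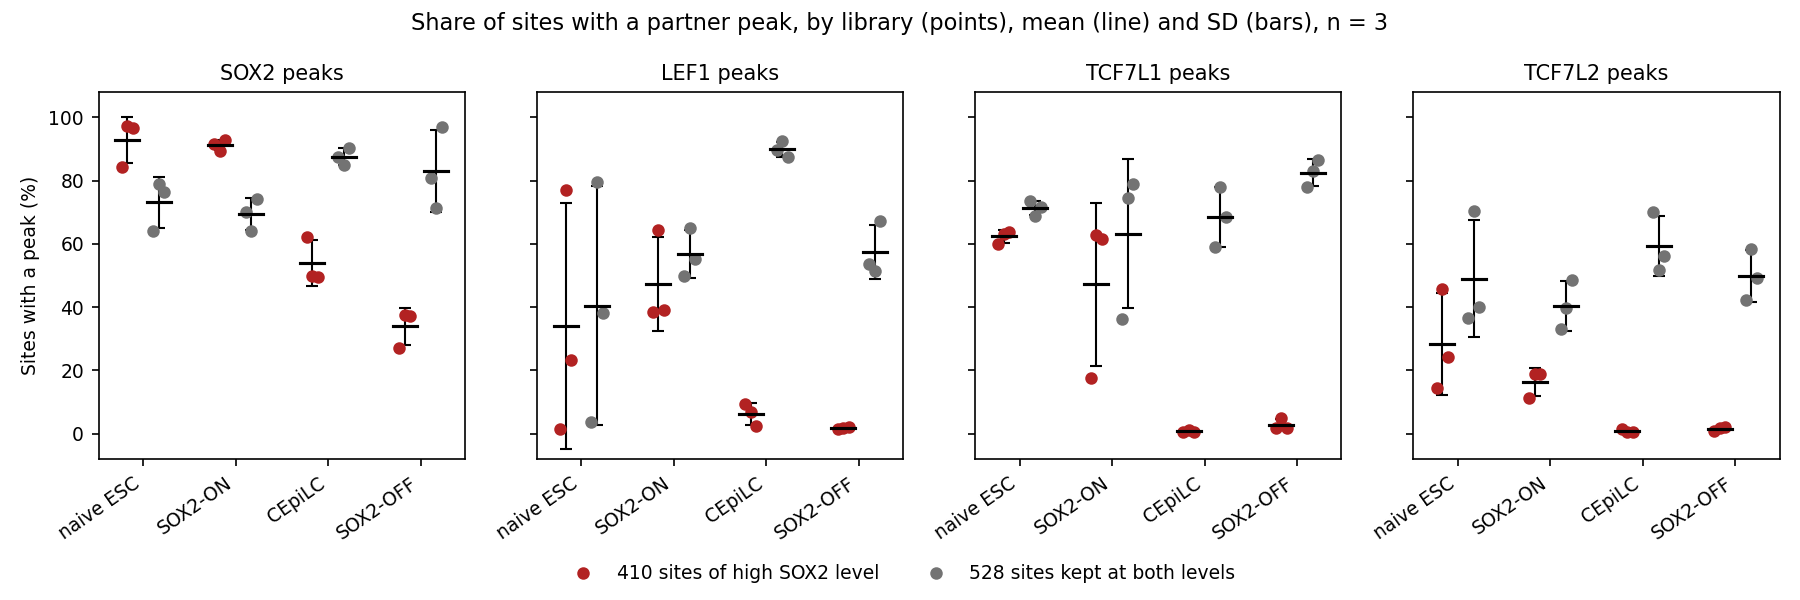
Share of sites with a peak (y axis, %) in each library (points) of SOX2, LEF1, TCF7L1 and TCF7L2 (panels) in the 4 conditions (x axis), for 410 high-SOX2 sites (red) and 528 kept sites (grey), with the mean (line) and SD (bars, n = 3). Red points of CEpiLC and SOX2-OFF lie between 27.1 and 62.2% for SOX2 and at or below 9.27% for the TCF/LEF factors, while grey points stay at 42.2% or above there. List length differs between the panels, from 1628 peaks for TCF7L1 to 20000 for SOX2.

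With the 4 proteins cut to the same 1628 peaks, a comparison between them became possible (a length chosen after the data were seen). TCF7L1 was then at 60 to 63.9% of the sites in naive ESCs, SOX2 at 43.7 to 57.8%, LEF1 at 1.46 to 53.7% and TCF7L2 at 7.80 to 24.4%. In SOX2-ON cells TCF7L1 was at 17.6, 62.7 and 61.5%, SOX2 at 50, 48.5 and 48.3%, LEF1 at 24.9, 50 and 29.0% and TCF7L2 at 6.83 to 8.78%, so the order of TCF7L1 and SOX2 differed between replicates. In the low-SOX2 libraries SOX2 was at 5.37 to 11.7% and each of the others at no more than 4.88%. The differences between SOX2 levels were 53.0 points for TCF7L1, 41.9 for SOX2, 29.1 for LEF1 and 11.7 for TCF7L2, and the differences between proteins were not tested.

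Within each line, 3 against 3 libraries cannot give an exact permutation p below 0.1. SOX2, TCF7L1 and TCF7L2 reached it in both lines and LEF1 in the SOX2-TetON line. LEF1 gave an exact permutation p of 0.400 in the WT line, where its difference was 27.8 points, or 44.1 without naive ESC replicate 1 and 6.26 without naive ESC replicate 2. The difference in SOX2 share was 38.9 points in the WT line and 57.3 in the SOX2-TetON line (WT minus SOX2-TetON -18.5, exact permutation test, p = 0.0850, adjusted p = 0.210). For TCF7L1 it was 61.6 and 44.3 points (exact permutation test of the difference between lines, p = 0.105, adjusted p = 0.210), for LEF1 27.8 and 45.5 (p = 0.415, adjusted p = 0.415, exact permutation test) and for TCF7L2 27.4 and 14.6 (exact permutation test, p = 0.210, adjusted p = 0.280). A difference between the lines was thus not detected with 3 libraries per group. It passed for LEF1 without naive ESC replicate 2 (-39.3 points, exact permutation test, adjusted p = 0.0200) and for TCF7L2 without naive ESC replicate 1 (19.7 points, exact permutation test, adjusted p = 0.0400). The replicates are labelled biological, and whether libraries of different proteins shared a chromatin preparation is not given in the sources used here.

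More of the sites held SOX2 and TCF7L1 together at high than at low SOX2. Counting a protein as present with an equal-length peak in at least 2 of 3 libraries, SOX2 and TCF7L1 were both at 250 of the 410 sites in naive ESCs and at 200 in SOX2-ON cells, but at 0 in CEpiLC and 3 in SOX2-OFF cells. By this count SOX2 was at 397 and 380 sites in naive ESCs and SOX2-ON cells, and TCF7L1 at 257 and 210. The joint counts at high SOX2 thus follow those of TCF7L1, and an association between them was not tested. Of the 12191 other sites, 1084 held both in naive ESCs and 960 in CEpiLC. SOX2 without any TCF/LEF factor was at 132 of the 410 sites in naive ESCs and 206 in CEpiLC of the WT line. In the SOX2-TetON line it was at 134 with and 123 without doxycycline. Of the 12191 other sites, 3025, 2310, 2810 and 1845 held SOX2 alone in the same order. None of the 4 proteins was present at 6 of the 410 sites in naive ESCs and at 20 in SOX2-ON cells, against 183 in CEpiLC and 278 in SOX2-OFF cells. Of the 12191 other sites, 7455, 7643, 6677 and 8455 held none of them in the same 4 conditions. Lacking all 4 at low SOX2 was thus not particular to high-SOX2 sites. These counts rest on lists of unequal length, 20000 peaks for SOX2 and 1628 to 4443 for the others. In the uncut lists SOX2 and TCF7L1 were together at 408 of the 410 sites in naive ESCs, 404 in SOX2-ON, 39 in CEpiLC and 175 in SOX2-OFF cells. SOX2 without any TCF/LEF factor was at 0, 0, 186 and 65. Of the 12191 other sites, 6523, 5059, 2674 and 4058 held SOX2 and TCF7L1 in these conditions, and 442, 743, 1801 and 1159 held SOX2 alone. At high-SOX2 sites the larger of these uncut counts at low SOX2 was thus SOX2 alone in CEpiLC, and SOX2 with TCF7L1 in SOX2-OFF cells. With the equal-length lists it was SOX2 alone in both. The TCF7L1 list of CEpiLC replicate 1 held 1628 peaks and the shortest of SOX2-OFF cells 38535. The part of list length in this difference was not tested. At the kept sites, with the equal-length lists, SOX2 and TCF7L1 were together at 304 of 528 in naive ESCs, 344 in CEpiLC and 400 in SOX2-OFF cells.

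The high-SOX2 sites were mostly far from gene starts and spread over many genes. Their median distance to the nearest protein-coding start site (GENCODE M21) was 38978 bp, compared with 33526 bp for the other sites. Within 1000 bp of a start lay 12 sites (2.93%), against 6.37% of the other sites and 4.92% of kept sites. The summits of 167 (40.7%) were in introns, of 5 (1.22%) in exons and of 226 (55.1%) between protein-coding genes. The sites were 844 bp wide at the median, from 373 to 2466 bp. They had 393 different nearest genes, of which 377 had 1 site, 15 had 2 and 1, Dcstamp, had 3. Only 18 of the 410 had another high-SOX2 site within 50000 bp.

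Some genes of naive pluripotency were among the nearest genes. Nearest genes of high-SOX2 sites made up 1.8% of all 21840 protein-coding genes. On the naive pluripotency list 6 of 28 genes were nearest to a site (21.4%), namely Klf4, Klf5, Esrrb, Tbx3 and Prdm14, which encode transcription factors of the naive network, and Il6st, which encodes the gp130 co-receptor of LIF and had 2 sites. Low-SOX2 sites were nearest to 2 genes of that list and kept sites to 4. Of the 10 core pluripotency genes, 2 (Zfp281 and Tcf7l1) were nearest to a high-SOX2 site, against 4 for kept sites and 1 for low-SOX2 sites. None of 25 streak and mesoderm genes was, against 7 of 25 for low-SOX2 sites, and none of 18 WNT feedback genes was, against 5 of 18 for kept sites. With lists this short and the 1.8% of all genes above, a count of 0 is not a result about these lists. The neural list gave 3 of 22, with 2 sites for Rfx4 and 1 each for Rax and Pax3, and the FGF and ERK feedback list gave 2 of 10, Dusp6 and Dusp4, which encode MAP kinase phosphatases. On these lists low-SOX2 sites were nearest to 1 and 4 genes, and kept sites to 1 and 3. The caudal epiblast list gave 2 of 28, Cdx4 with 1 site and Sp8 with 2, and the primed and anterior epiblast list 1 of 15, Dnmt3a, a de novo DNA methyltransferase whose site lay inside Dtnb. For these lists the counts were 3 and 2 at low-SOX2 sites and 5 and 2 at kept sites. Many listed genes have a β-catenin site of some kind near them (25 of 28 naive pluripotency and 22 of 25 streak genes), against 29.9% of all protein-coding genes. The 1.8% of all genes is thus not a matched background for these lists. Of the 88 sites nearest to naive pluripotency genes, 7 were high-SOX2 sites, against 410 of all 12601 (3.25%). The nearest start site is not evidence of regulation.

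The strongest of the sites that met the rule in every list lay in an intron of Clstn2 at chr9:97476407-97477838, nearest by start to Trim42, 107225 bp away. Its β-catenin fold was 144.9, 109.6 and 193.0 in naive ESCs and 122.5, 150.5 and 120.5 in SOX2-ON cells. It was 9.01, 5.86 and 4.21 in CEpiLC and 8.21 and 8.74 in SOX2-OFF replicates 1 and 3, with no peak in replicate 2. No low-SOX2 value came near the lowest high-SOX2 one, which the choice of the site on these values favoured. At this site the SOX2 fold was 50.2, 72.8 and 77.0 in naive ESCs and 47.2, 60.2 and 59.2 in SOX2-ON cells, against 9, 10.5 and 7.54 in CEpiLC and 4.86, 6.97 and 13.0 in SOX2-OFF cells. The TCF7L1 fold was 217.1, 191.8 and 403.7 in naive ESCs and 22.7, 203.5 and 242.1 in SOX2-ON cells, and at low SOX2 it was listed in 1 CEpiLC library (8.98) and at 9.28, 7.41 and 10.1 in SOX2-OFF cells. In SOX2-OFF cells the ranges of the SOX2 and TCF7L1 folds thus overlapped, and both lay below every SOX2-ON value of the same protein.

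The other 9 of the 10 strongest lay in introns of Rftn2, Akap2, Filip1l (which overlaps Cmss1), Tns3 and Smoc2 and between genes nearest to Zfp608, Ttc28, Cntn6 and Vwa3b. The Rftn2 site (chr1:55198255-55199541), in the gene of a raft-associated protein, had β-catenin folds of 84.3, 59.5 and 91.2 in naive ESCs, 45.0, 48.0 and 69.3 in SOX2-ON cells and at most 6.95 in CEpiLC and SOX2-OFF cells. The Akap2 site (chr4:57769960-57770869), in the gene of a protein kinase A anchoring protein, was stronger in SOX2-ON cells (64.1, 67.7 and 77.0) than in naive ESCs (54.6, 34.2 and 38.1) and was listed in 1 low-SOX2 library, at 4.49. The Filip1l site (chr16:57473203-57474245) showed the reverse, with 122.4, 88.6 and 131.3 in naive ESCs and 28, 27.6 and 28.9 in SOX2-ON cells. SOX2 followed at both, with folds of 16.3, 17.7 and 13.5 in naive ESCs and 37.2, 29.1 and 32.1 in SOX2-ON cells at Akap2, and of 38.7, 49.8 and 46.8 and 16.7, 13.9 and 12.4 at Filip1l. Fold values of different libraries depend on depth and background and are set side by side without a test.

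The Tns3 (chr11:8568939-8570321) and Smoc2 (chr17:14301190-14302550) sites, in genes of a focal adhesion protein and of a matrix protein, had median high-SOX2 folds of 55.6 and 50.3. Tns3 was listed in 5 low-SOX2 libraries at 4.13 to 8.23 and Smoc2 in 4 at 3.90 to 9.67. The Ttc28 (chr5:110877233-110878662), Cntn6 (chr6:104983536-104984701) and Vwa3b (chr1:36985720-36986702) sites had medians of 53.3, 51.2 and 49.3, and the Zfp608 site one of 53.7. At the Ttc28, Cntn6, Vwa3b and Zfp608 sites the highest low-SOX2 fold was 8.11 and the lowest high-SOX2 fold 31.3. Such a gap follows from how the strongest sites were chosen.

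**Figure D5:**
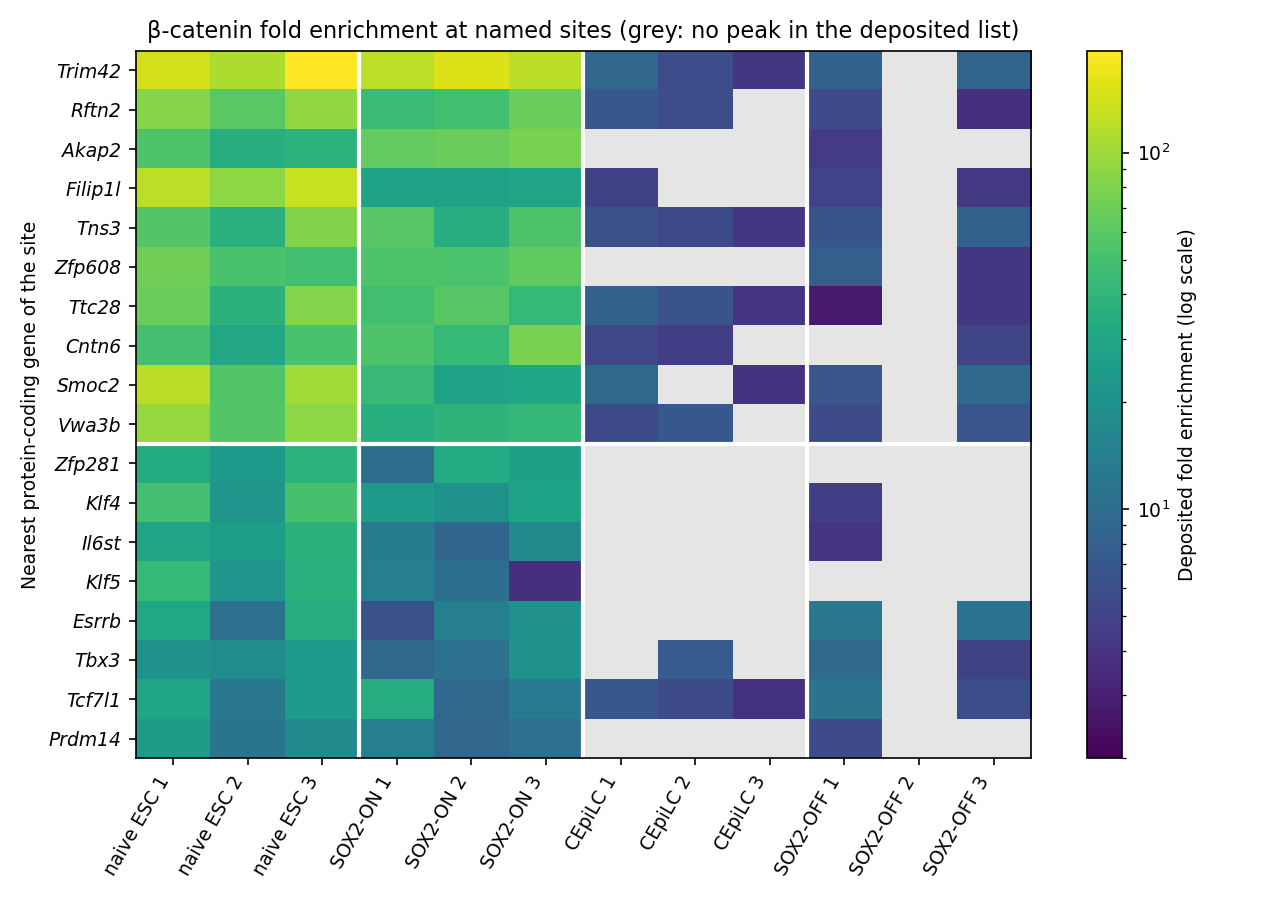
Deposited β-catenin fold enrichment (colour, log scale) in each of the 12 libraries (x axis) at the 10 strongest sites and, under the white line, at 8 sites nearest to pluripotency genes (y axis, nearest gene). Grey marks libraries without a peak. The Trim42 site reached 193.0 in naive ESC replicate 3, and SOX2-OFF replicate 2 had a peak at none of the 18 sites.

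Near the pluripotency genes several sites had higher β-catenin folds in naive ESCs than in SOX2-ON cells. Medians over all 410 sites tended the same way (31.7, 17.8 and 27.8 against 20.8, 14.9 and 20.2), so this was not particular to these genes. The Klf4 site (chr4:55463841-55464895), 68029 bp downstream of the start of Klf4 and between genes, had β-catenin folds of 49.5, 21.7 and 50.7 in naive ESCs and 23.1, 20.8 and 28.4 in SOX2-ON cells, and a single low-SOX2 peak of 4.70. SOX2 folds there were 27.2, 21.6 and 16.2 in naive ESCs and 21.8, 27.6 and 24.4 in SOX2-ON cells, against at most 6.60 at low SOX2. TCF7L1 folds were 79.3, 46.8 and 144.8 in naive ESCs and 6.52, 38.3 and 62.5 in SOX2-ON cells, with 1 low-SOX2 peak, at 3.43. All 3 proteins were thus high and low together at this site.

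The Klf5 site (chr14:99509677-99510837), 211189 bp from the start of Klf5, had β-catenin folds of 42.6, 21.6 and 36.8 in naive ESCs and 14.4, 10.6 and 3.73 in SOX2-ON cells, and no peak in any low-SOX2 list. The Il6st site (chr13:112462151-112463037), 1438 bp upstream of the start, had 29.0, 25.5 and 37.8 in naive ESCs and 13.6, 8.83 and 17.8 in SOX2-ON cells. SOX2 at the Il6st site was 36.1, 46.8 and 41.5 in naive ESCs and 19.8, 27.4 and 20.4 in SOX2-ON cells, and its 3 low-SOX2 peaks were at most 3.90. The Zfp281 site (chr1:136613115-136613721), beside the gene of a zinc-finger factor of the pluripotency network, had 33.3, 23.9 and 38.6 in naive ESCs and 10.2, 32.7 and 27.0 in SOX2-ON cells, and no low-SOX2 peak. At the Klf5 and Il6st sites the naive ESC values did not overlap those of SOX2-ON cells, and at the Zfp281 site they did.

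The Esrrb site (chr12:86470804-86471475) lay 968 bp downstream of the start of the gene, the only one of the 8 within 1000 bp. It had β-catenin folds of 30.5, 11.2 and 34.3 in naive ESCs, 6.2, 14.3 and 20.7 in SOX2-ON cells and 12.4 and 11.4 in SOX2-OFF replicates 1 and 3, with no CEpiLC peak. In the WT line the groups were thus apart at Esrrb, and in the SOX2-TetON line their values overlapped. The Tbx3 site (chr5:119709765-119710378) ranged from 18.3 to 23.1 in naive ESCs and from 9.31 to 20.8 in SOX2-ON cells, with 9.75 in SOX2-OFF replicate 1, and its SOX2 peak remained among the 20000 strongest in 5 of 6 low-SOX2 libraries. The Prdm14 site (chr1:13074425-13075171) had 24.6, 11.9 and 17.1 in naive ESCs, 14.4, 9.06 and 11.1 in SOX2-ON cells and a single low-SOX2 peak of 5.69. Its SOX2 folds were 24.9, 20.0 and 29.0 in naive ESCs and 24.0, 19.8 and 29.2 in SOX2-ON cells, nearly equal between the lines.

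The Tcf7l1 site (chr6:72787270-72789234), 1421 bp from the start of the gene, differed from the others in that its peaks depended on the replicate. It was the only one of the 410 sites to overlap an exon of Tfap2a, Tfap2c, Tcf7l1 or Tcf7l2. LEF1 folds in replicate 1 were 12.1, 79.0, 25.0 and 96.8 in naive ESC, SOX2-ON, CEpiLC and SOX2-OFF, against at most 11.3 in the other replicates. The SOX2 fold was 129.2 in SOX2-OFF replicate 1, against 14.7 and 21.2 in the others. The β-catenin fold was 33.6 in SOX2-ON replicate 1 and 9.22 and 13.2 in replicates 2 and 3. Libraries of replicate 1 thus stood above the rest for several proteins here, and their part in the site's membership was not tested.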

How the data were processed

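ChIP-seq for β-catenin, SOX2, LEF1, TCF7L1 and TCF7L2 covered 60 libraries, and 4 input samples were not analysed here. The authors crosslinked cells with DSG and formaldehyde, sequenced single ends, ran nf-core/chipseq (Trim Galore, BWA, mm10) and called narrow peaks per library with MACS2 at its default q-value of 0.05. Replicates were not pooled. The deposited lists give fold enrichment (a ratio), −log10 p-values and −log10 q-values, a score derived from them, and a summit. The version of MACS2 and the input paired with each library are not given in the sources used here. Peaks on unplaced scaffolds were dropped.

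Each β-catenin list was cut to 3423 peaks and each partner list to the shortest list of its protein, at most 20000 (SOX2 20000, LEF1 4443, TCF7L1 1628, TCF7L2 4134), by fold. Up to 102 peaks of a list tied at the lowest fold kept and were taken by −log10 p-value. A site summit was the median over its lists. A partner was present where its peak overlapped the site by at least 1 bp. Shares over sites were compared over libraries by exact two-sided permutation tests, with Benjamini-Hochberg adjustment over 4 proteins (8 tests within lines). P-values measure the spread between libraries labelled as biological replicates. Genes came from GENCODE M21 basic and sequences from GRCm38 through pysam 0.24.0 and samtools 1.23.1, with Python 3.11.15, numpy 2.4.6 and scipy 1.17.1. The functions were tested on simulated data. The sites named were the 10 of highest median fold among those at 6 of 6 and 0 of 6 lists, the strongest site of each naive pluripotency, core pluripotency and WNT feedback gene, and the sites at the edges of the rule, with no coordinates or sequence for chromosome 18. Members, gene lists and recognition sequences were chosen with earlier results of these data known, and the comparison with kept sites and the common list length of 1628 were added after the data were seen.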

Additional observations from a re-analysis of the deposited data

How the results depend on the processing

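The 4 differences between SOX2 levels at high-SOX2 sites, and the 4 set against the other sites, kept their direction under every alternative run. They kept an adjusted p at or under 0.05 except for LEF1 with the replicate block (36.7 points, adjusted p = 0.0625, exact permutation test) and for all 8 when a whole replicate number was left out, where the smallest possible p is 0.0556 (LEF1 between levels gave exact permutation p-values of 0.111 and 0.167 without replicates 2 and 3). The block changed no other call. Deviations of same-numbered libraries from their group means correlated weakly over sites, at -0.0418 to 0.110. None of 8 sets of 3 pairs was above 0.1 throughout, but 32 of 48 libraries correlated best with their own number. Between SOX2-ON and SOX2-OFF cells all same-number correlations were positive (0.0168 to 0.110), while in the WT line they had either sign. A weak pairing by number in the SOX2-TetON line is thus possible, and the main tests did not use it. Leaving out libraries, singly or by number, the differences between levels ranged from 46.4 to 53.7 points for SOX2, 25.9 to 49.1 for LEF1, 49.1 to 65.7 for TCF7L1 and 16.6 to 27.8 for TCF7L2. Set against the other sites they ranged from 43.7 to 50.4, 35.2 to 53.5, 51 to 66.2 and 19.9 to 28.9. With all deposited partner peaks the differences between levels were 35.9 points for SOX2, 59.7 for LEF1, 53.3 for TCF7L1 and 42.9 for TCF7L2, and those set against the other sites 26.3, 48.8, 34.3 and 41.7. Within lines they were 50.8 (WT) and 68.6 (SOX2-TetON) points for LEF1, 41.5 and 44.3 for TCF7L2 and, for TCF7L1 in the SOX2-TetON line, 27.6 (exact permutation p = 0.300). The difference between lines ranged from -28 to -10.5 for SOX2, -39.3 to -1.46 for LEF1, 2.10 to 26.7 for TCF7L1 and 3.94 to 20.4 for TCF7L2 when libraries were left out. With all deposited peaks it was -8.21, -17.8 and 51.2 points for SOX2, LEF1 and TCF7L1 and reversed to -2.76 for TCF7L2 (exact permutation tests, adjusted p = 0.2 to 0.865), and it reached 20.2 points for TCF7L1 (adjusted p = 0.0200, exact permutation test) with the rule of at least 4 of 6 and at most 2 of 6 lists. The cause was not tested. The number of sites was 421 by −log10 p-value ranking (overlapping 362 of the 410), 250 with lists of at most 2000 peaks, 169 at 6 of 6 and 0 of 6 lists, 831 at 4 and 2, 3611 from all deposited peaks, and 234 to 262 without a replicate number. SOX sequences were at 55.1 and 86.6% of sites within 50 and 250 bp of the summit, and TCF sequences at 27.1 and 46.6%. Within the gene body or 10 kb upstream of a gene lay 53.2% of sites, against 21.5% within 10 kb of a start.

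Read depth is not given by the lists, so a missing peak is not evidence of no binding. Equal-length lists remove differences in list length but not in antibody, enrichment or background. Members were chosen for β-catenin peaks in the same cells as the partner libraries, and chromatin accessibility was not measured in these lists.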

Other observations

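Among high-SOX2 sites, those with a TCF sequence differed in their partners from those without. The TCF7L1 pattern (a peak in at least 5 of 6 high-SOX2 and at most 1 of 6 low-SOX2 lists) was at 39.9% of 153 sites with a TCF sequence and 24.1% of 257 without, and TCF7L2 was in a mean of 1.73 and 1.1 of 6 high-SOX2 lists. SOX2 was in a mean of 5.20 of 6 high-SOX2 and 2.13 of 6 low-SOX2 lists at sites with a TCF sequence, and in 5.71 and 2.93 at sites without. LEF1 was in 2.45 and 2.43 of 6 high-SOX2 lists, nearly equal. For the SOX sequence the contrast was small, with SOX2 in 5.57 of 6 high-SOX2 lists at sites with it and 5.38 at sites without. These are descriptions over sites, without a test.

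Soft-masked repeats made up over 50% of the 201-bp window at 16.1% of high-SOX2 sites, 15.3% of kept sites and 28% of low-SOX2 sites. CpG dinucleotides averaged 1.59 per window at high-SOX2 sites and 3.37 at kept sites.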
